A study of Danio rerio with 15 samples.

Results

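Whole zebrafish larvae carrying mutations in tfeb, tfe3a and tfe3b were compared with wild-type larvae, both without injection, by bulk RNA sequencing. The comparison was chosen by genotype and treatment alone and uses 6 of the 15 libraries of the study, 3 per genotype, and every gene in the count table that holds them. All 6 came from the TL strain at 4 days post fertilization, kept from the embryo stage at 28.5 ºC in water that held methylene blue and the pigment synthesis inhibitor PTU. Larvae were viewed by confocal microscopy and snap frozen before extraction of total RNA. The other 9 libraries came from triple mutants and wild type injected with zymosan A, a yeast cell wall preparation that phagocytes engulf, and from uninjected larvae mutant for rraga, which encodes the Rag GTPase RagA. They are used here to place values and gene list counts of the uninjected comparison. They also serve a direct comparison with rraga mutants and a test of whether injection changed the genotype difference. The kind of lesion in each gene, and whether larvae were pooled for a library, are not given in the sources used here. The replicates are labelled biological, and the p-values measure only the spread between these libraries.

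Tfeb and its relatives Tfe3 and Mitf are the MiT/TFE family of basic helix-loop-helix transcription factors. In mammalian cells they bind E-box elements near many genes of lysosome biogenesis and autophagy. The Rag GTPases recruit them to the lysosome surface, where mTORC1 phosphorylates them and keeps them in the cytoplasm, so that they reach the nucleus when that signal is lost. Microglia, the macrophages of the brain, clear dying neurons and depend heavily on lysosomes.

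Of 23296 genes listed, 17879 passed the filter on low counts. The 6 libraries held between 12314113 and 15341256 counts, of which the 10 most abundant genes took 14.9% to 19.58%. Mitochondrially encoded genes took 7.99% to 10.46% of counts in the triple mutants and 10.06% to 12.64% in wild type. The first principal component of the 6 libraries held 57.4% of the variance and separated the genotypes. The second held 13.3% and set wild-type replicate 3 at 41.2 against -21.32 and -23.31 for the other wild-type libraries.

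Without any injection, 985 genes were higher and 1201 lower in the triple mutants, together 12.2% of the genes tested (edgeR quasi-likelihood test, Benjamini-Hochberg adjusted p under 0.05). Higher calls were 5.51% and lower calls 6.72% of tested genes, and the median log2 fold change over all tested genes was 0.00. Most changes were small. Among the higher genes 336 changed by less than 1.5-fold, 297 by 1.5-fold to 2-fold, 205 by 2-fold to 4-fold and 147 by more than 4-fold. The corresponding numbers of lower genes were 448, 299, 241 and 213. The ranges of the 3 triple mutant and 3 wild-type values did not overlap at 5300 genes, 29.6% of those tested.

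**Figure D1:**
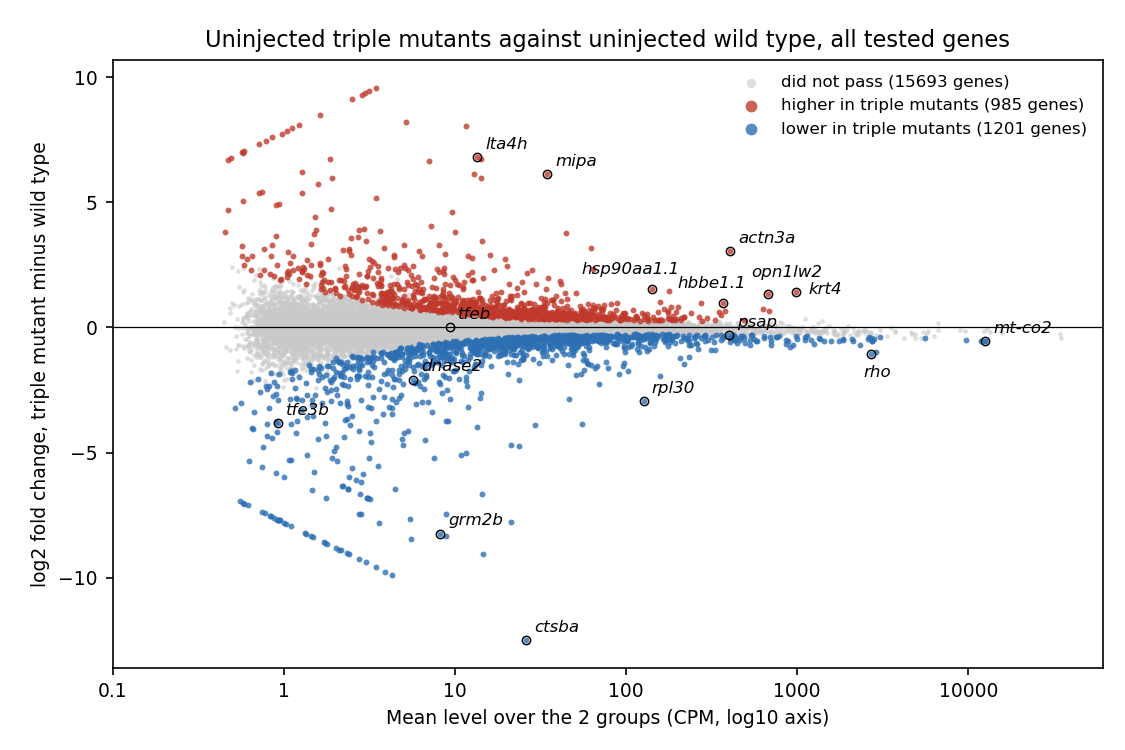
Log2 fold change, triple mutant over wild type, against mean CPM, counts scaled to library size, on a log10 axis for the 17879 tested genes. Grey points are the 15693 genes that did not pass the test, red points the 985 higher and blue points the 1201 lower genes, with selected genes labelled; the fitted position of a gene with 0 counts in a genotype, such as ctsba, is no measure of its fold change.

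Among the targeted genes, tfe3b had little RNA left in the mutants, while tfeb and tfe3a did not pass the test. tfe3b (ENSDARG00000019457, chromosome 11, 25504215 to 25519837, GRCz11) was at 0.143, 0.115 and 0.0778 counts scaled to library size (CPM) in the triple mutant libraries and at 1.19, 1.87 and 2.16 CPM in wild type. The ranges did not overlap, although the values rest on 5 counts against 66 (log2 fold change -3.83 ± 0.66 SE, adjusted p = 0.000753). tfeb (ENSDARG00000010794, chromosome 11, 22287954 to 22361306) was at 7.53, 12.3 and 8.32 CPM in the triple mutants and at 9.32, 9.67 and 9.08 CPM in wild type, so that the mutant range enclosed the wild-type range (0.01 ± 0.20, adjusted p = 0.986). tfe3a (ENSDARG00000098903, chromosome 8, 7778770 to 7809451) was at 2.87, 3.05 and 1.24 CPM against 3.97, 3.9 and 1.71 CPM, again with overlap (-0.42 ± 0.41, adjusted p = 0.589). A lesion that leaves the transcript in place would not show in these counts. The related factors mitfa (0.02, adjusted p = 0.979) and tfec (0.16, adjusted p = 0.897) did not pass the test either.

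Lysosomal proteases had the highest share of lower calls among the 4 lysosomal gene lists. Of 20 tested, 6 (30%) were lower, where the share over all tested genes was 6.72%. The list had a median log2 fold change of -0.40 against 0.00 for all genes. Its summed level was 640 to 723 CPM in the triple mutants and 899 to 973 CPM in wild type. All gene lists of this report were chosen with earlier results of these data known, which limits what their shares show. In bulk larvae, fewer cells of a type and less RNA per cell cannot be told apart. ctsba, a copy of the gene for cathepsin B (ENSDARG00000055120, chromosome 17, 32622931 to 32631514), had no count in any triple mutant library and 55.2, 41.8 and 59 CPM in wild type. With 2027 counts in wild type and a floor of 3 counts over the mutant group, ctsba was at least 764-fold lower. Its duplicate ctsbb stood at 6.59, 3.17 and 5.91 CPM against 9.26, 7.64 and 8.63 CPM and missed the threshold (-0.72 ± 0.25, adjusted p = 0.0785).

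The other lowered proteases changed by less than 3-fold. ctsk, cathepsin K, which degrades collagen (ENSDARG00000040251, chromosome 16, 29492749 to 29502787), was at 6.24, 6.74 and 8.32 CPM in the triple mutants and at 17.7, 21.7 and 19.2 CPM in wild type. Every mutant library lay below every wild-type library (-1.46 ± 0.16, adjusted p = 7.68e-06). ctsa, the protective protein of lysosomal galactosidase and neuraminidase, was at 14.1, 12.7 and 13 CPM against 28.6, 23.3 and 25.4 CPM, a clear gap between the groups (-0.96 ± 0.13, adjusted p = 6.48e-05). ctsla, a cathepsin L gene, was at 167, 135 and 152 CPM against 230, 247 and 225 CPM (-0.63 ± 0.09, adjusted p = 0.00017). ctsl.1 was at 26, 18.2 and 22.5 CPM against 44.6, 27.4 and 31.9 CPM, groups that nearly touched (-0.65 ± 0.16, adjusted p = 0.0144). The aspartic protease gene ctsd was at 50.5, 42 and 41.2 CPM against 62.7, 53 and 64.6 CPM, likewise close to overlap (-0.43 ± 0.11, adjusted p = 0.0139).

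Among 47 tested genes for lysosomal glycosidases, sulfatases, lipases and nucleases, 9 (19.1%) were lower and 1 (2.13%) higher, with a median of -0.20. Over all tested genes 6.72% were lower and 5.51% higher. dnase2, the acid nuclease that digests the DNA of engulfed cells (chromosome 16, 45337663 to 45357518), was at 1.86, 2.3 and 2.33 CPM in the triple mutants and at 7.34, 11.1 and 9.35 CPM in wild type. It stood apart from the rest of the list, whose other lower members changed by less than 2-fold (-2.09 ± 0.26, adjusted p = 2.38e-05). psap, the precursor of the saposins that present lipids to lysosomal hydrolases, was the most abundant, at 369, 323 and 379 CPM against 438, 428 and 451 CPM (-0.30 ± 0.09, adjusted p = 0.0385). hexb, a beta-hexosaminidase subunit, was at 69.5, 57.7 and 65.1 CPM against 74.5, 80.5 and 85.2 CPM (-0.32 ± 0.10, adjusted p = 0.0375). The phospholipase B-like gene zgc:158619, named plbd2 in the symbol table, was at 33.7, 24.4 and 24.3 CPM against 43.4, 38.8 and 42.9 CPM (-0.60 ± 0.13, adjusted p = 0.00382). The remaining lower members were glb1l (-0.72), galca (-0.61), fuca1.1 (-0.45), naga (-0.43) and ppt1 (-0.37). fuca2, a fucosidase gene, was the higher member at 7.96, 7.31 and 6.3 CPM against 2.71, 3.74 and 5.4 CPM (0.88 ± 0.27, adjusted p = 0.0384). Several of these genes lie near the threshold: the lower count was 3 without triple mutant replicate 2 or without wild-type replicate 2, 4 without wild-type replicate 1 and 5 without wild-type replicate 3.

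Of 51 tested genes of the lysosomal membrane and of sorting, 4 were higher and 4 lower (7.84% each), with a median of -0.00. Both shares were near those of all tested genes, 5.51% higher and 6.72% lower. The chloride and proton exchanger gene clcn3 (ENSDARG00000003269, chromosome 7, 7511914 to 7643941) was at 36.4, 47.9 and 44.7 CPM in the triple mutants and at 6.35, 10.6 and 12 CPM in wild type. That was the strongest increase of the list (2.18 ± 0.18, adjusted p = 2.44e-07). laptm4a was at 99.1, 104 and 97.5 CPM against 77.4, 78.6 and 74.3 CPM (0.38 ± 0.08, adjusted p = 0.00543), and scarb2a, the receptor that carries glucocerebrosidase to the lysosome (0.42), and lmbrd1, needed for lysosomal cobalamin export (0.37), were also higher. The sortilin gene sort1a, a receptor that sorts hydrolases at the Golgi, was at 0.358, 0.173 and 0.7 CPM against 3.31, 7.41 and 3.06 CPM (-3.52 ± 0.53, adjusted p = 0.000214). spns1, a lysosomal lysophospholipid transporter, was at 9.82, 9.44 and 11 CPM against 15, 17.4 and 19.2 CPM, with no overlap (-0.77 ± 0.15, adjusted p = 0.0023). slc37a2, a sugar-phosphate transporter gene of zebrafish phagocytes (-0.46), and vps41, a subunit of the tethering complex for fusion with lysosomes (-0.41), were lower too. The count of higher members was 2 without triple mutant replicate 2, without wild-type replicate 2 or without wild-type replicate 3. The familiar membrane genes lamp2 (-0.08, adjusted p = 0.648), mcoln1a (0.05, adjusted p = 0.883) and npc1 (0.00, adjusted p = 0.994) did not pass.

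The proton pump that acidifies the lysosome, the v-ATPase, showed 4 higher (15.4%) and 3 lower (11.5%) genes of 26 tested, with a median of -0.02. Over all tested genes the shares were 5.51% and 6.72%. atp6v1ab, a copy of the gene for catalytic subunit A (chromosome 24, 21154120 to 21172122), was at 49.4, 44.2 and 46.2 CPM in the triple mutants and at 8.93, 9.83 and 9.71 CPM in wild type, 4.91-fold higher (SE 0.12 on the log2 scale, adjusted p = 5.00e-10). atp6v1g1, subunit G, was at 34.2, 25.1 and 38.4 CPM against 87, 92.3 and 95.6 CPM (-1.50 ± 0.13, adjusted p = 3.13e-07), and atp6v1ba, a subunit B copy, was at 20.9, 37.6 and 30.6 CPM against 59, 60.5 and 69.2 CPM (-1.08 ± 0.15, adjusted p = 0.000119). In these 3 genes the groups were far apart, in opposite directions for subunits of the same enzyme. Of 85 tested genes between 20 and 25 Mb on chromosome 24, where atp6v1ab lies, 22 were higher and 1 lower. There 8 (9.41%) changed over 4-fold, where the share over all tested genes was 2.01%. The part of this region in the change of atp6v1ab was not tested. atp6v0cb, a gene for the membrane ring subunit and the most abundant of the called subunits, was at 525, 461 and 474 CPM against 566, 608 and 650 CPM (-0.32, adjusted p = 0.0302). The other higher genes were atp6ap1lb (1.70), atp6v1c1b (1.01) and atp6v1b2 (0.36).

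Over all lysosomal lists, 144 of 152 genes passed the filter, and 9 (6.25%) were higher and 22 (15.3%) lower, with a median of -0.09 and a summed level of 4630 to 4990 CPM in the triple mutants against 5360 to 5470 CPM in wild type. Among all tested genes 5.51% were higher and 6.72% lower. Without wild-type replicate 2 the lysosomal calls were 5 higher and 14 lower. The calls of ctsd, ctsl.1, fuca2, glb1l, fuca1.1, galca, hexb, psap, ppt1, naga, scarb2a, lmbrd1, vps41, atp6v1b2 and atp6v0cb were lost under at least 1 alternative, and those of the other called lysosomal genes under none of those run. Leaving out genes in 5 Mb windows dense in changes over 4-fold, 9 were higher and 20 lower.

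**Figure D2:**
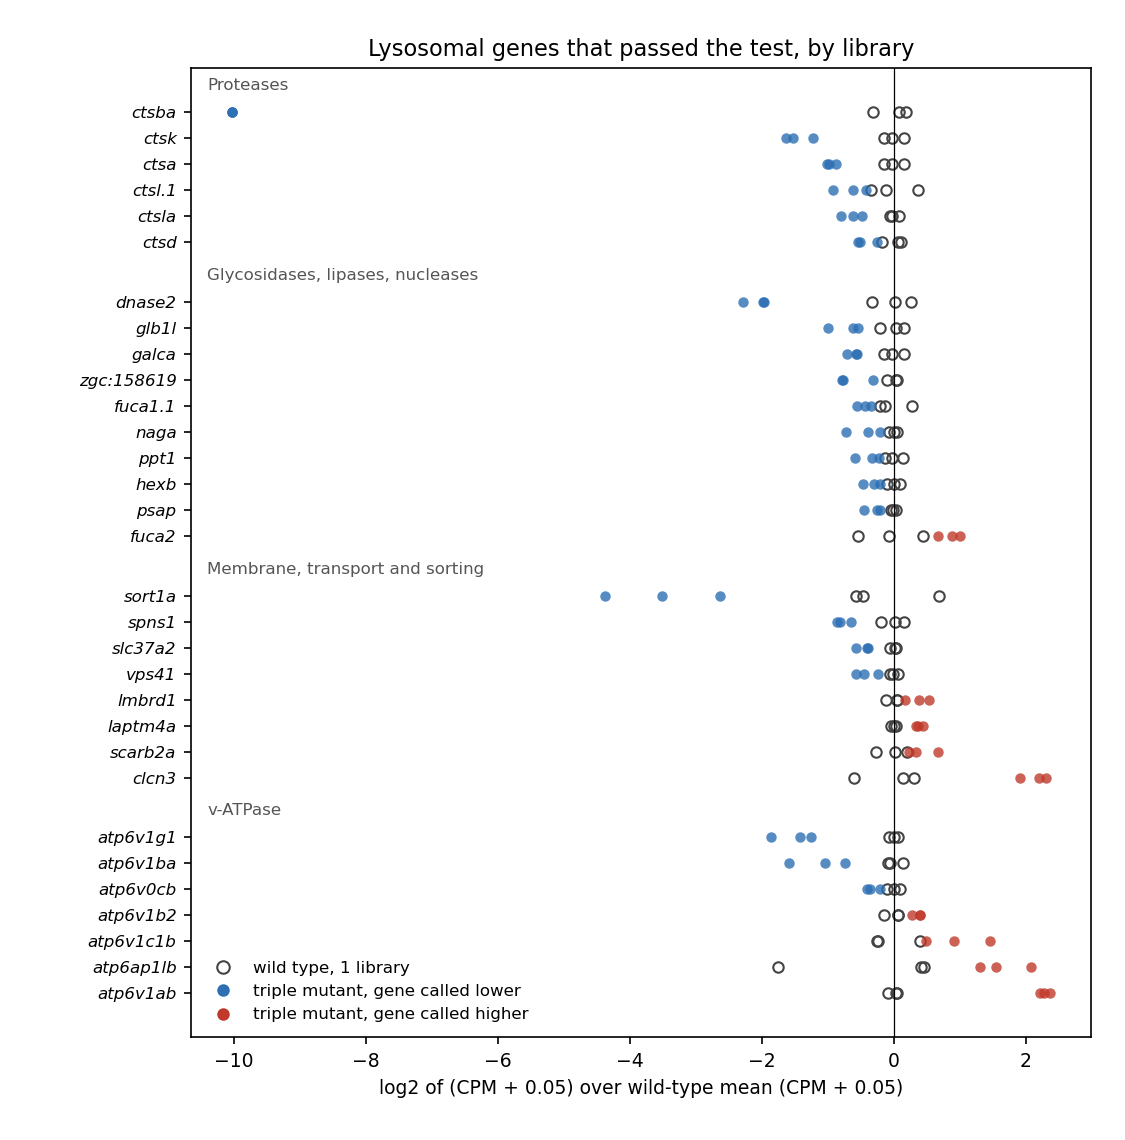
Level of each of the 31 called lysosomal genes in every library, as log2 of CPM plus 0.05 over the wild-type mean plus 0.05, grouped by list. Open circles are wild-type libraries and filled circles triple mutant libraries, blue for the 22 lower and red for the 9 higher genes; ctsba, with 0 counts in the mutants, sits at the far left.

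The larvae injected with zymosan give the genotype difference in separate libraries. In a fit of all 15 libraries, 11.9% of 19006 genes differed between zymosan-injected triple mutants and zymosan-injected wild type, 5.21% being higher and 6.66% lower in the mutants. The uninjected comparison called 9.77% in that fit, 3.93% higher and 5.84% lower. Of the lysosomal genes called in the uninjected comparison, 15 of the 22 lower genes (68.2%) and 4 of the 9 higher genes (44.4%) had the same call with zymosan. For all genes the corresponding shares were 742 of 1201 lower genes (61.8%) and 523 of 985 higher genes (53.1%), with 1 and 2 genes called in the opposite direction. ctsk differed by -1.45 with zymosan and clcn3 by 2.08, close to their uninjected values. ctsla differed by -0.19 with zymosan (adjusted p = 0.238), and the change in its genotype difference, 0.44 ± 0.14, did not pass the test (adjusted p = 0.476).

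Larvae mutant for rraga differed from the triple mutants in the direction of their lysosomal RNA. Against the same wild-type libraries, 14% of genes were called in rraga mutants, 7.58% higher and 6.41% lower, and of 146 tested lysosomal genes 67 were higher and 4 lower, with a median of 0.48. Both comparisons share the wild-type libraries, so their values are set side by side here: ctsd differed from wild type by -0.43 in triple mutants and 1.16 in rraga mutants, ctsla by -0.63 and 0.96, and psap by -0.30 and 0.63. Compared directly, 25.4% of genes differed between triple and rraga mutants, 13.9% being lower in the triple mutants. Of the lysosomal genes, 8 were higher and 77 lower in the triple mutants, among them ctsk (-2.66 ± 0.18), ctsd (-1.60 ± 0.11), ctsla (-1.59 ± 0.10) and psap (-0.93 ± 0.09). Proteases made up 17 of the lower genes, of 20 on that list.

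Autophagy genes, the other textbook targets of Tfeb, hardly entered the calls. Of 54 tested, 1 (1.85%) was higher and 0 were lower, against 5.51% and 6.72% of all tested genes. The called gene was map1lc3cl, a member of the LC3 family that coats autophagosomes. It was at 22.3, 17.5 and 17.7 CPM in the triple mutants and 10.6, 10.8 and 13.5 CPM in wild type (0.72 ± 0.15, adjusted p = 0.00422). The cargo receptor gene sqstm1 did not pass (0.31, adjusted p = 0.24). On the list for Rag, folliculin and mTORC1, 5 of 39 genes (12.8%) were higher and 2 (5.13%) lower, against 5.51% and 6.72% of all tested genes. rragca, which encodes a RagC GTPase, was at 16.7, 14.9 and 13.1 CPM against 7.34, 8.27 and 5.76 CPM, about 2-fold higher with no overlap (1.06 ± 0.18, adjusted p = 0.000588). deptor, an inhibitor of mTOR (0.73), the translation repressor gene eif4ebp1 (0.44), mtor itself (0.38) and the coactivator gene ppargc1a (0.43) were higher. The call of ppargc1a, which is also the higher gene of the fatty acid oxidation list, counts in both lists. lamtor4, part of the Ragulator scaffold for Rag GTPases, was at 10.3, 10.2 and 10.3 CPM against 16.7, 15.5 and 16.7 CPM (-0.67 ± 0.14, adjusted p = 0.00415). mlst8, a core mTOR partner, had 4 counts against 191 (-5.63 ± 0.62, adjusted p = 6.97e-06) and has 8 neighbours within 0.5 Mb that also changed over 4-fold. The 5 higher genes became 2 without wild-type replicate 2 and 3 without wild-type replicate 1, wild-type replicate 3 or triple mutant replicate 3, and the 2 lower genes became 4 without triple mutant replicate 1.

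Markers of microglia and macrophages were mostly present at low level, and 27 of 39 passed the filter. Of these 5 (18.5%) were lower and 1 (3.7%) higher, against 6.72% and 5.51% of all tested genes, and the median was 0.02. grn1, a granulin gene, whose mammalian relative encodes the lysosomal protein progranulin, was at 1.65, 1.38 and 2.1 CPM in the triple mutants and at 8.33, 5.3 and 7.73 CPM in wild type (-2.07 ± 0.30, adjusted p = 0.000136). apoeb, the apolipoprotein E gene that marks zebrafish microglia, was at 201, 163 and 187 CPM against 260, 245 and 246 CPM (-0.44 ± 0.09, adjusted p = 0.00346). cd9b, a tetraspanin gene, was at 25.8, 19.6 and 21.2 CPM against 41.5, 38.7 and 35.1 CPM (-0.80 ± 0.12, adjusted p = 0.000236). All 3 were lower in every triple mutant library than in any wild-type library, where groups did not overlap at 29.6% of all tested genes. apoeb is also on the hepatocyte list. The higher gene, cx43 (0.30), is also on the radial glia list. The lower gene slc37a2 is also on the lysosomal membrane list. Calls of apoeb, cx43 and slc37a2 count in each list that holds them and are not particular to microglia. Of the defining macrophage genes, csf1ra (0.02, adjusted p = 0.972), spi1b (-0.00, adjusted p = 0.998), p2ry12 (-0.69, adjusted p = 0.488) and mpeg1.2 (-0.95, adjusted p = 0.062) did not pass. mpeg1.1, the usual zebrafish macrophage marker, had 1 count in the triple mutants and 21 in wild type and was not tested. The wild-type level of mpeg1.1 was 23.7 times that of the mutants, and counting error alone allows 3.82 to 982 times. Of 14 genes on the neutrophil list, npsn (0.52, adjusted p = 0.0467) and cpa5 (0.69, adjusted p = 0.00952) were higher. The carboxypeptidase gene cpa5 is also on the exocrine pancreas list, so its call counts in both and is not particular to neutrophils. Neither gene kept its call with DESeq2 or without wild-type replicate 2 or 3. mpx, the myeloperoxidase gene, did not pass (-0.25, adjusted p = 0.676).

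Of 41 tested immediate-early and inflammatory genes, 8 (19.5%) were lower and 3 (7.32%) higher, with a median of -0.16. Over all tested genes 6.72% were lower and 5.51% higher. fosab, the Fos subunit of the AP-1 factor, was at 7.89, 8.58 and 8.71 CPM in the triple mutants and at 26.6, 22.5 and 23.5 CPM in wild type, the most marked decrease of the list (-1.53 ± 0.14, adjusted p = 7.95e-07). junbb, a Jun subunit, was at 14.1, 17.7 and 15.4 CPM against 25.4, 25 and 29.2 CPM (-0.75 ± 0.13, adjusted p = 0.000767). The immediate-early genes ier2a (-1.38 ± 0.15, adjusted p = 5.42e-06) and ier2b (-0.93, adjusted p = 0.000756) were lower too. In the injected larvae fosab differed by -0.40 (adjusted p = 0.0501) and junbb was higher in the triple mutants, by 0.47 (adjusted p = 0.0242). The 3 higher genes include lta4h, the leukotriene A4 hydrolase gene, at 30.8, 23 and 27 CPM against 0.331, 0.234 and 0.0899 CPM (6.82 ± 0.28), and cxcl12b, a chemokine gene, at 28.7, 24.6 and 31.7 CPM against 0, 0.234 and 0.629 CPM (6.73 ± 0.35, adjusted p = 7.39e-10). Both were near 0 in wild type and plainly present in every triple mutant library, whereas the duplicate cxcl12a did not pass (-0.13, adjusted p = 0.514). Within 0.5 Mb, 5 neighbours of lta4h and 3 of cxcl12b also changed over 4-fold. In rraga mutants cxcl12b differed from the same wild-type libraries by 4.39 (adjusted p = 2.80e-07) and lta4h by 0.86 (adjusted p = 0.451).

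Complement and acute-phase genes held 3 higher (8.33%) and 6 lower (16.7%) of 36 tested, against 5.51% and 6.72% of all tested genes. c3b.1, a complement C3 gene, was at 6.16, 4.43 and 4.82 CPM in the triple mutants and at 0.0661, 0.624 and 0.36 CPM in wild type (3.89 ± 0.50, adjusted p = 3.77e-05). It has 3 neighbours within 0.5 Mb that also changed over 4-fold. In rraga mutants c3b.1 differed from the same wild-type libraries by 3.09 (adjusted p = 0.000319). cfp, the gene for properdin, which stabilises the complement convertase, was at 6.24, 2.76 and 5.37 CPM against 15.3, 14 and 17.1 CPM (-1.70 ± 0.24, adjusted p = 9.07e-05). hamp, the gene for the iron-regulating hormone hepcidin, was at 0, 0.23 and 0 CPM against 1.45, 1.25 and 2.52 CPM, 4 counts against 66 (-4.16 ± 0.82, adjusted p = 0.00237). itih2 was at 14.4, 16.5 and 19.8 CPM against 33.1, 24.2 and 28.1 CPM (-0.76 ± 0.14, adjusted p = 0.00178).

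Nuclear-encoded genes of the respiratory chain were mostly lower where they passed the test. Of 74 tested, 27 (36.5%) were lower and 1 (1.35%) higher, against 6.72% and 5.51% of all tested genes. The list had a median of -0.28. Its summed level was 11800 to 14900 CPM in the triple mutants against 16100 to 17200 CPM in wild type. uqcrc1, a core subunit of complex III, was at 28, 20 and 26.3 CPM against 55, 52.3 and 50.9 CPM (-1.09 ± 0.12, adjusted p = 7.02e-06). ndufs3, a complex I subunit, was at 87.7, 57.2 and 74 CPM against 113, 120 and 129 CPM (-0.73 ± 0.12, adjusted p = 0.000612). In both, triple mutant replicate 2 was the lowest of the 6 libraries. The exception in direction was atp5mc3a, a ring subunit of ATP synthase, at 262, 215 and 229 CPM against 118, 139 and 140 CPM (0.83 ± 0.10, adjusted p = 1.56e-05). The 27 lower genes became 15 without wild-type replicate 2. The 13 genes encoded on the mitochondrial genome had a median of -0.43 and 5 lower calls, for example mt-co2 at 12400, 7920 and 10100 CPM against 13200, 13800 and 17700 CPM (-0.55 ± 0.17, adjusted p = 0.0362). That count was 9 without triple mutant replicate 1, 2 without triple mutant replicate 2 and 1 without any single one of the other 4 libraries, and 1 by DESeq2.

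Of 38 fatty acid oxidation genes, 9 (23.7%) were lower and 1 (2.63%) higher, with a median of -0.16. Over all tested genes 6.72% were lower and 5.51% higher. hadhaa, an alpha subunit of the mitochondrial trifunctional protein of beta-oxidation (chromosome 20, 47953047 to 47984895), was at 24.9, 22.3 and 25.3 CPM in the triple mutants and at 63.7, 65.7 and 74.2 CPM in wild type (-1.49 ± 0.10, adjusted p = 2.80e-08). The beta subunit gene HADHB (chromosome 20, 47927720 to 47953524), whose annotated span meets that of hadhaa, was at 82.5, 83.2 and 88.4 CPM against 131, 138 and 132 CPM (-0.66 ± 0.08, adjusted p = 3.60e-05). These spans overlap, and whether counting used strand is not stated in the sources at hand, so that reads from their shared end cannot be told apart. The oxidation enzymes acaa2 (-0.58) and eci2 (-0.57) were lower as well. The 9 lower genes became 5 without wild-type replicate 2. Of 34 genes of cholesterol synthesis 2 (5.88%) were higher, a share near the 5.51% of all genes: hmgcra, the rate-limiting reductase, at 37, 30.6 and 30.1 CPM against 12.2, 14.8 and 13 CPM (1.29 ± 0.13, adjusted p = 2.75e-06), and cyp51, which removes a methyl group from lanosterol (0.92 ± 0.12, adjusted p = 7.36e-05). The median of that list was -0.02, and the duplicate hmgcrb did not pass (-0.10, adjusted p = 0.685). In glycolysis 6 of 35 genes (17.1%) were lower and 2 (5.71%) higher. The lower genes included the muscle enzyme genes aldoaa (-0.53), pfkma (-0.59) and pgam2 (-0.45). The higher genes were the glucose transporter gene slc2a1a (1.23 ± 0.27, adjusted p = 0.0052) and pfkpb (0.50). The lower count was 2 without wild-type replicate 3 and 3 without triple mutant replicate 3.

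Of 33 tested heat shock and co-chaperone genes, 9 (27.3%) were higher and 2 (6.06%) lower, against 5.51% and 6.72% of all tested genes. The heat shock genes had a median of 0.09. Their summed level overlapped, 5840 to 7150 CPM in the triple mutants and 6510 to 7230 CPM in wild type. hsp90aa1.1, the Hsp90 gene that serves myosin folding in zebrafish muscle (ENSDARG00000010478), was at 234, 184 and 217 CPM in the triple mutants and at 72.9 ± 4.05 CPM in wild type (SD, n = 3), where the highest library had 77.5 CPM (1.54 ± 0.10, adjusted p = 1.06e-08). hsp70l, an inducible Hsp70 gene, was at 32.5, 30.9 and 31.9 CPM against 8.46, 8.42 and 12.2 CPM (1.72 ± 0.15, adjusted p = 3.79e-07). unc45b, the myosin co-chaperone that works with Hsp90 (0.70), serpinh1b, a collagen chaperone (0.69), and the constitutive hspa8 (0.49) were also higher. The mitochondrial Hsp70 gene hspa9 went the other way, at 27.5, 34.7 and 33.6 CPM against 84.8, 101 and 79.9 CPM (-1.47 ± 0.11, adjusted p = 1.25e-07). The 9 higher genes became 5 without wild-type replicate 2, and 3 of the 9 (33.3%) had the same call with zymosan, where the share for all higher genes was 53.1%. In the injected larvae hsp90aa1.1 differed between genotypes by 0.10 (adjusted p = 0.845), and the change in its difference, -1.44 ± 0.32, missed the threshold (adjusted p = 0.0791).

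The extracellular matrix and cartilage list was lower at 19 of 41 genes (46.3%) and higher at 1 (2.44%). All tested genes were lower at 6.72% and higher at 5.51%. The matrix list had a median of -0.27. Its summed level was 9300 to 10400 CPM in the triple mutants against 12500 to 12700 CPM in wild type. col11a1a, a fibrillar collagen of cartilage, was at 147, 119 and 159 CPM against 314, 339 and 316 CPM (-1.19 ± 0.10, adjusted p = 4.78e-07). col2a1b, a type II collagen gene, was at 346, 351 and 348 CPM against 546, 554 and 520 CPM, with almost no spread within either group (-0.63 ± 0.08, adjusted p = 5.73e-05). matn1, a cartilage matrilin (-0.51, adjusted p = 0.00117), and col10a1a, a collagen of hypertrophic cartilage and bone (-0.95, adjusted p = 0.00153), were lower, and col12a1b was the higher gene (0.51). The 19 lower genes became 9 without wild-type replicate 1 or without wild-type replicate 2, and 6 of the 19 (31.6%) had the same call with zymosan, where the share for all lower genes was 61.8%.

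Of 43 tested lens genes, 22 (51.2%) were lower and 1 (2.33%) higher, against 6.72% and 5.51% of all tested genes. The lens genes had a median of -0.45. Their summed level was 13700 to 15700 CPM in the triple mutants and 19600 to 23200 CPM in wild type. BFSP1, which encodes the beaded filament protein filensin, was at 21.4, 30.9 and 27 CPM against 86.8 ± 14.5 CPM in wild type (SD, n = 3), where wild-type replicate 2 was lowest (-1.71 ± 0.14, adjusted p = 2.00e-07). Its filament partner bfsp2 was lower (-0.82, adjusted p = 2.32e-05), as was dnase1l1l, the nuclease that removes DNA from lens fibre cells in zebrafish, at 3.94, 5.07 and 3.81 CPM against 17.7, 16.7 and 22.2 CPM (-2.13 ± 0.18). The abundant beta-crystallin gene crybb1 was at 2610, 2130 and 2400 CPM against 3010, 3140 and 3590 CPM (-0.45 ± 0.11, adjusted p = 0.0145). mipa, a lens water channel gene, was the exception, at 75.1, 68.2 and 61.5 CPM against 1.12, 0.936 and 0.809 CPM (6.12 ± 0.17, adjusted p = 4.56e-13), and its duplicate mipb did not pass (-0.15, adjusted p = 0.376). Against the same wild-type libraries mipa was also higher in rraga mutants, by 6.33 on the log2 scale. It has 4 neighbours within 0.5 Mb that also changed over 4-fold in the triple mutants. Against those wild-type libraries, 19 of 43 lens genes were lower and 1 higher in rraga mutants, with a median of -0.45. Among all genes 6.41% were lower and 7.58% higher there. Compared directly, 4 lens genes were higher and 4 lower in triple than in rraga mutants, beside 11.5% and 13.9% of all genes. The 22 genes lower in triple mutants became 14 without wild-type replicate 3, the library that stood apart on the second principal component.

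Photoreceptor genes held 18 lower (30%) and 5 higher (8.33%) of 60 tested, against 6.72% and 5.51% of all tested genes. Their median was -0.18, and genes of rods and of cones were among the lower ones. rho, rhodopsin, was at 2030, 1460 and 1730 CPM in the triple mutants and at 3400, 3410 and 4250 CPM in wild type (-1.08 ± 0.13, adjusted p = 2.38e-05). The rod genes saga for arrestin (-1.10), gnat1 for transducin (-0.99) and pde6a for the phosphodiesterase (-0.96) moved by a like amount. The blue cone opsin opn1sw2 (-0.44, adjusted p = 0.0091) and the green cone opsin opn1mw1 (-0.47, adjusted p = 0.0122) were lower by less. opn1lw2, a red cone opsin, was higher, at 1080, 868 and 959 CPM against 355, 373 and 413 CPM (1.35 ± 0.10, adjusted p = 1.01e-07). It lies beside tfe3b on chromosome 11, at 25481046 to 25483206. gngt2a, a cone transducin gamma gene, was at 33.2, 17 and 26.8 CPM against 0.331, 0.624 and 0.0899 CPM (6.13 ± 0.36), while its more abundant duplicate gngt2b was lower (-0.46, adjusted p = 0.00596). Of the 18 lower photoreceptor genes 17 (94.4%) had the same call with zymosan, and of the 5 higher genes 1 (20%). The shares for all lower and all higher genes were 61.8% and 53.1%. In the injected larvae 33 of 60 photoreceptor genes were lower and 1 higher in the mutants, with a median of -0.81. Among all genes 6.66% were lower and 5.21% higher there.

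In skeletal muscle 28 of 71 tested genes (39.4%) were lower and 3 (4.23%) higher, against 6.72% and 5.51% of all tested genes. The median was -0.27. Summed levels were 128000 to 168000 CPM against 165000 to 189000 CPM, ranges that overlapped. desma, muscle desmin, was at 190, 173 and 197 CPM in the triple mutants and at 351, 336 and 330 CPM in wild type (-0.86 ± 0.09, adjusted p = 2.43e-06). ampd1, the muscle AMP deaminase gene, was at 754, 671 and 739 CPM against 1130, 1140 and 1250 CPM (-0.70 ± 0.09, adjusted p = 6.81e-05). The alpha-actinin gene actn3a was higher, at 766, 653 and 740 CPM against 98.9, 69.4 and 94 CPM (3.04 ± 0.13, adjusted p = 4.45e-11), while its duplicate actn3b was lower (-0.49). pygma, muscle glycogen phosphorylase, was at 225, 193 and 216 CPM against 99.9, 107 and 111 CPM (1.00 ± 0.09, adjusted p = 6.93e-07). An actin gene, actc1c, was almost absent from the triple mutants (2 counts, with 1135 in wild type). The ratio was 642 (95% counting interval 177 to 5310).

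Erythrocyte genes were higher at 7 of 21 tested (33.3%) and lower at 1 (4.76%), against 5.51% and 6.72% of all tested genes. The erythrocyte list had a median of 0.36. Its summed level was 1060 to 1240 CPM in the triple mutants against 784 to 847 CPM in wild type. hbbe1.1, an embryonic beta-globin gene, was at 512, 414 and 542 CPM against 238, 271 and 237 CPM (0.98 ± 0.11, adjusted p = 6.23e-06). The alpha-globin genes hbae3 (0.82) and hbae1.3 (0.88) were higher by similar amounts. The transferrin receptor genes, which take up iron, were higher as a pair: tfr1a was at 16.2, 16 and 18.1 CPM against 8.33, 8.97 and 8 CPM (0.99 ± 0.15, adjusted p = 0.000219) and tfr1b at 33.2, 22.2 and 26.1 CPM against 12.4, 9.44 and 8.63 CPM (2.65-fold, adjusted p = 2.18e-05). In rraga mutants tfr1a differed from the same wild type by 1.92 and tfr1b by 2.86.

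Among 14 iron-handling genes, picked after their values were seen, these 2 receptor genes were higher and 4 were lower: hamp, described above, the haem carrier gene hpx (-2.89, adjusted p = 0.00309), the ferroxidase gene cp (-0.78) and the haem oxygenase gene hmox1a (-1.53, adjusted p = 0.0294). The plasma carrier tfa (0.07), the exporter slc40a1 (-0.11), the importer slc11a2 (-0.03) and the ferritin chain fth1a (-0.07) did not pass. Neither did the sensors ireb2 (0.09) and aco1 (-0.03). The call of hmox1a was lost under 7 of the 13 alternatives. In the injected larvae hamp (-0.82, adjusted p = 0.2), cp (-0.05, adjusted p = 0.901) and hmox1a (-0.09, adjusted p = 0.911) did not pass between genotypes. There hpx (-3.18), tfr1a (1.07) and tfr1b (1.26) passed in the same direction as without injection.

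Of 43 genes of hepatocytes and liver secretion, 14 (32.6%) were lower and 3 (6.98%) higher. Among all tested genes the shares were 6.72% and 5.51%. The summed liver level overlapped, however, 4640 to 6170 CPM against 5250 to 6440 CPM. apoea, an apolipoprotein E gene, was at 44.4, 26.9 and 44.3 CPM in the triple mutants and at 129, 140 and 86.2 CPM in wild type (-1.63 ± 0.18, adjusted p = 7.04e-06), and hpda, an enzyme of tyrosine breakdown, was lower (-0.78). agxta, an aminotransferase gene, was higher at 28.7, 25.2 and 34.3 CPM against 17.7, 16.5 and 16 CPM (0.80 ± 0.13, adjusted p = 0.000453). Exocrine pancreas genes were higher at 6 of 21 (28.6%) and lower at 1 (4.76%). An example was the carboxypeptidase gene cpb1 at 17.3, 15.8 and 19.9 CPM against 4.89, 6.47 and 3.78 CPM (1.80 ± 0.19, adjusted p = 6.16e-06). The summed pancreatic level overlapped, 675 to 916 CPM in the triple mutants and 399 to 730 CPM in wild type, and with zymosan 3 pancreatic genes were higher and 3 lower. The pancreatic count became 3 without wild-type replicate 2 or wild-type replicate 3, and the 3 higher liver genes became 1 without wild-type replicate 3. In enterocytes 5 of 38 (13.2%) were lower and 1 (2.63%) higher. The chitinase gene chia.2 was at 68.7, 54.5 and 76.4 CPM against 110, 99.4 and 107 CPM (-0.66 ± 0.11, adjusted p = 0.000522). The higher gene rbp2a, which carries retinol, was at 50.4, 37.4 and 51.8 CPM against 27.8, 19.1 and 16 CPM (1.13 ± 0.17, adjusted p = 0.000178). The enterocyte count of lower genes was 3 without triple mutant replicate 3 or wild-type replicate 1.

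Of 62 neuronal genes 6 (9.68%) were higher and 3 (4.84%) lower, with a median of 0.05. The lower genes were grm2b, a glutamate receptor gene with 2 counts in the triple mutants and 639 in wild type, the transcription factor gene pou3f2b, with 4 and 684 counts, and stxbp1b of the synaptic release machinery (-0.49). The higher genes included vamp2 of the synaptic vesicle (0.58), gad2, which makes GABA (0.37), and slc17a6b, a vesicular glutamate transporter (0.41). The 6 higher genes became 3 without wild-type replicate 3, and the 3 lower genes became 5 without triple mutant replicate 1. Radial glia held 3 higher and 1 lower of 27, including glula, glutamine synthetase, at 297, 334 and 290 CPM in the triple mutants and 233, 234 and 215 CPM in wild type (0.43 ± 0.09, adjusted p = 0.00315). Myelin held 1 higher and 1 lower of 19 (5.26% each), pigment cells 3 lower of 30 (10%), and endothelium 2 higher of 30 (6.67%). The lower myelin gene, pllp (-6.67), is also on the enterocyte list, and its call counts in both. Over all tested genes 5.51% were higher and 6.72% lower. The pigment count was 1 without any single library other than triple mutant replicate 1, and also by DESeq2 and with the replicate block. The endothelial count was 1 without triple mutant replicate 2, triple mutant replicate 3 or wild-type replicate 1, and both calls were lost without wild-type replicate 3 and in the 15-library fit.

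Among the general cell programmes, DNA replication and mitosis held 6 higher and 3 lower of 47 genes, with mki67, the proliferation marker, at 152, 171 and 172 CPM in the triple mutants and 125, 123 and 119 CPM in wild type (0.43 ± 0.09, adjusted p = 0.0023). The 6 higher genes became 3 without triple mutant replicate 2, triple mutant replicate 3 or wild-type replicate 3. The higher and lower genes were 12.8% and 6.38% of that list, where the shares over all tested genes were 5.51% and 6.72%. The circadian list held 4 higher of 37 (10.8%), among them per3 (0.48, adjusted p = 0.0456) and bhlhe40 (0.44, adjusted p = 0.00394), and 2 without wild-type replicate 1. Antioxidant targets of Nrf2 held 6 lower (18.2%) and 1 higher (3.03%) of 33, for example nqo1 (-0.58) against prdx1 (0.48). The p53 list held 2 in each direction of 21: the cell cycle gene ccng1 (0.71 ± 0.08, adjusted p = 1.84e-05) was higher and the antiproliferative gene btg2 (-0.73 ± 0.10, adjusted p = 0.0001) lower. Endoplasmic reticulum chaperones held 3 lower of 25, including xbp1, the factor of the unfolded protein response, at 165, 141 and 160 CPM against 200, 216 and 221 CPM (-0.45 ± 0.09, adjusted p = 0.00224). The integrated stress list held 1 in each direction of 29 (3.45% each) and the interferon list 1 lower of 9 (11.1%). The proteasome held 2 higher (5.26%) and 6 lower (15.8%) of 38, and ribosomal proteins 2 higher (2.53%) and 4 lower (5.06%) of 79. Of the ribosomal genes, rpl30 was at 38.8, 20.1 and 28.5 CPM against 209, 215 and 248 CPM (-2.95 ± 0.16). The lower count of Nrf2 targets was 4 without triple mutant replicate 1 and 1 to 3 without any other library, and that of the proteasome 8 and 1 to 3. That of ribosomal proteins was 14 without triple mutant replicate 1 and 2 without wild-type replicate 1 or 2, and their higher count was 5 without triple mutant replicate 2. The lower count of chaperones of the endoplasmic reticulum was 1 without wild-type replicate 1 or 2. The higher proteasome count was 4 without triple mutant replicate 2 and 1 without triple mutant replicate 3 or wild-type replicate 1 or 2. In the p53 list 1 higher gene was left without triple mutant replicate 3 or wild-type replicate 1 or 2, and 1 lower gene without triple mutant replicate 3 or wild-type replicate 1. The interferon call was lost when any single triple mutant library or wild-type replicate 2 was left out, and 2 genes of the integrated stress list were higher without triple mutant replicate 1.

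**Figure D3:**
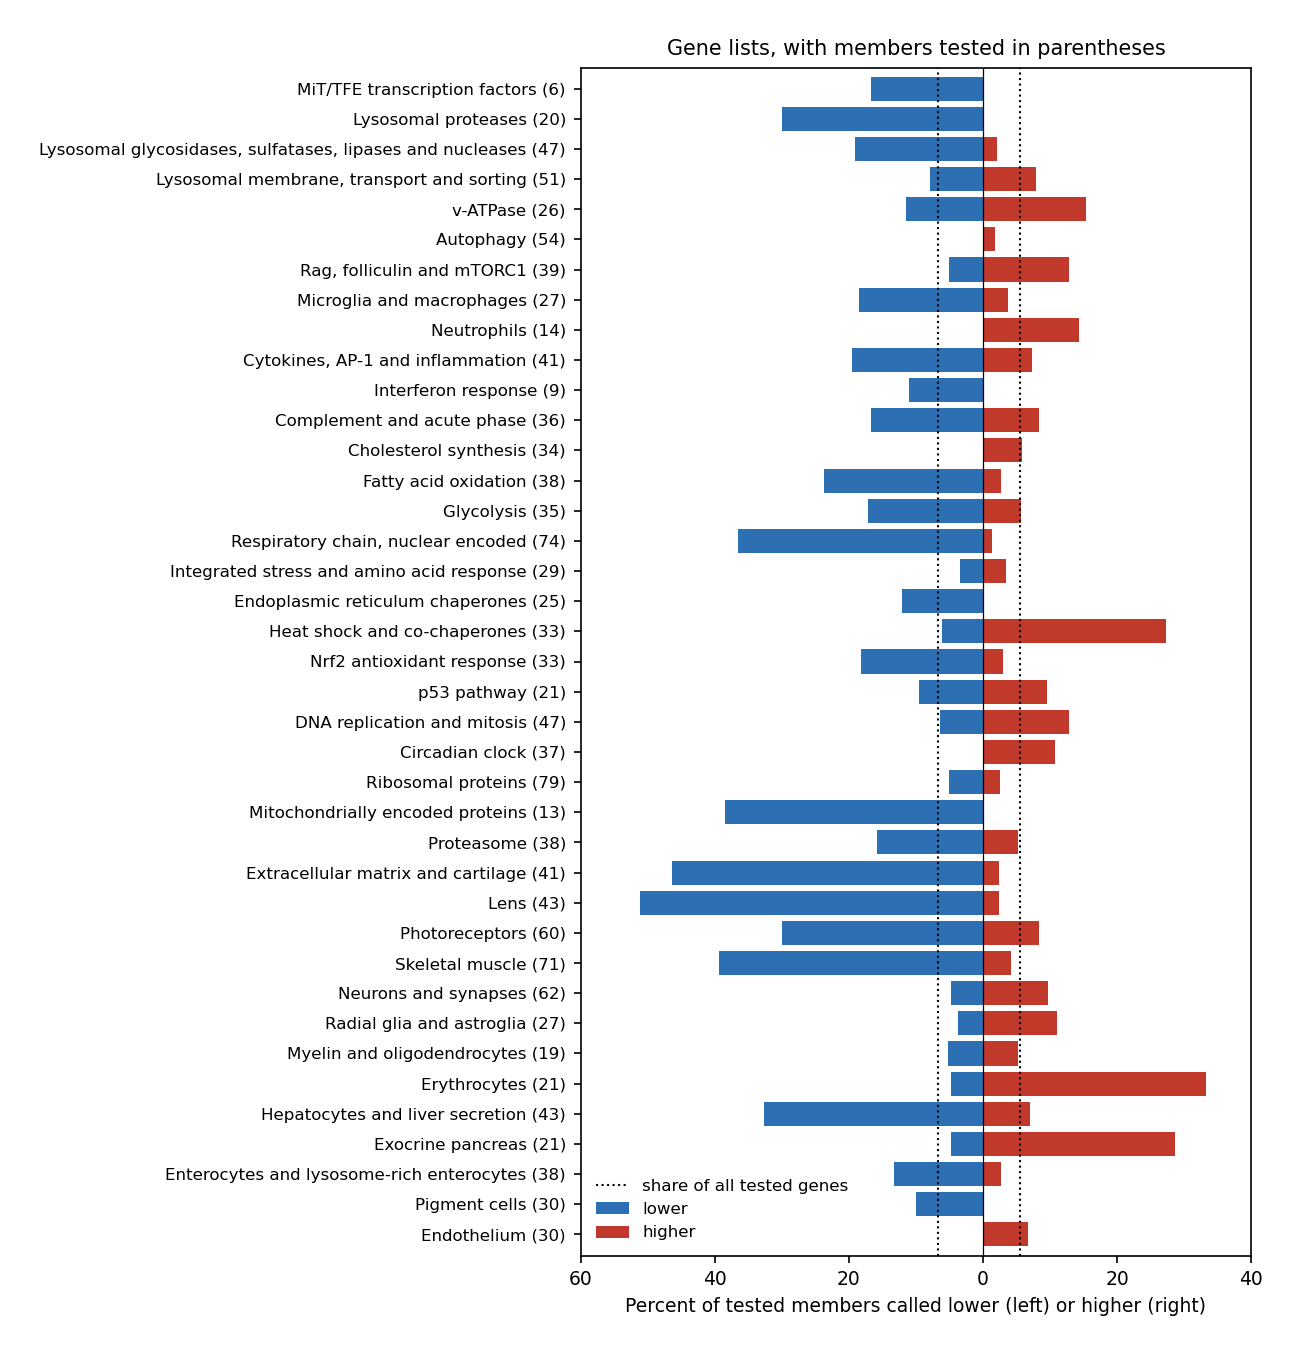
Share of the tested members of each gene list that were lower (bars to the left) or higher (bars to the right) in triple mutants, in percent. Dotted lines mark the shares of all tested genes, 6.72% lower and 5.51% higher. The lens, extracellular matrix and skeletal muscle lists reach 51.2%, 46.3% and 39.4% to the left and the erythrocyte list 33.3% to the right. The lists were chosen with earlier results of these data known, so their distance from the dotted lines is no test of the lists.

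Many of the largest changes were genes nearly silent in a single genotype. In the triple mutants 18 genes with at least 100 counts in wild type had none, 12 of them with a symbol, and in wild type 8 genes with at least 100 counts in the mutants had none, 3 of them with a symbol. Beside ctsba, the mitotic gene dlgap5 was at 7.54, 10.2 and 8 CPM in wild type and 0 in every triple mutant library, and tor2a, a torsin gene, at 4.83, 4.06 and 3.78 CPM against 0. In the other direction znf1156 was at least 90.5-fold higher in the mutants, where it had 307 counts and wild type 0. The gene arnt, which encodes a partner of the dioxin receptor, had 104 against 0, at least 30.7-fold higher. rem2, a small GTPase gene, had 140 against 0, at least 41.3-fold higher. Against the same wild-type libraries, znf1156 (152 counts, adjusted p = 3.02e-07) and rem2 (57 counts, adjusted p = 0.00134) were also higher in rraga mutants. arnt, with 7 counts there, did not pass (adjusted p = 0.134). The ratio of grm2b, wild type over triple mutant, was 361, and counting error alone spans 99.6 to 2990. hacd3 had 1 count there and 431 in wild type, and its ratio was 487 (87 to 19300). slc25a4, which exchanges ADP and ATP across the mitochondrial membrane, was at 116, 70.5 and 60.8 CPM in the triple mutants and at 6.02, 6.01 and 6.29 CPM in wild type (3.76 ± 0.21).

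Zebrafish carry many duplicated genes, and the copies were counted as separate genes. Among 2039 pairs whose symbols differ only in a final a or b, 1536 had neither copy called, 215 had 1 copy lower, 226 had 1 copy higher, 32 had both lower, 17 had both higher, and 13 had copies called in opposite directions. These counts stand beside a share of 12.2% called over all tested genes, and nothing particular to duplicates is read from them. The pairs prnpa (1.24) and prnpb (-3.23), and wnk1a (-4.51) and wnk1b (3.46), were opposite. pou3f2b was lower (-7.47), while pou3f2a did not pass (0.15, adjusted p = 0.445). ldb2b, which encodes an adaptor of LIM-domain factors, was higher (6.67) and ldb2a did not pass (0.12, adjusted p = 0.538). A read that fits both copies of a recent duplicate could be assigned to either or dropped, so values of near-identical copies are uncertain.

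**Figure D4:**
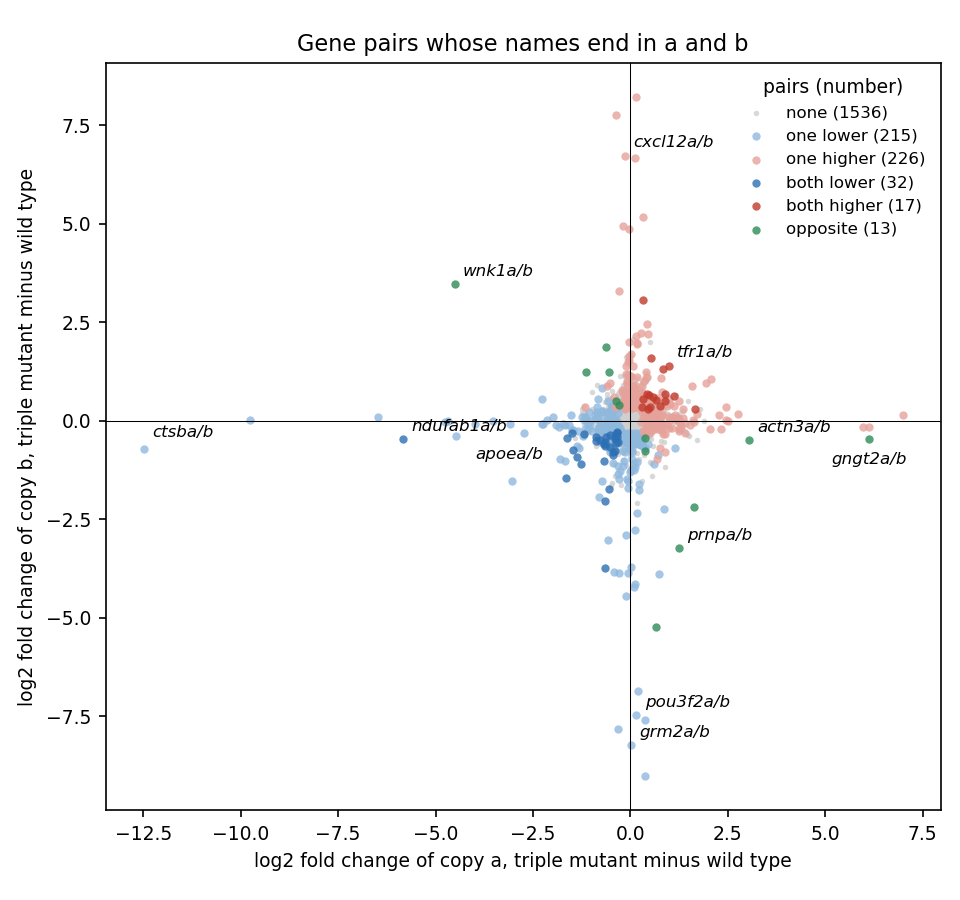
Log2 fold change of copy a (horizontal) against copy b (vertical) for the 2039 duplicate pairs, coloured by which copies passed the test. Pairs with a single called copy, 215 lower and 226 higher, lie along the axes, and 13 pairs were called in opposite directions.

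The share of genes that changed more than 4-fold varied between chromosomes. It was 2.01% over all tested genes, 8.92% on chromosome 18, 3.83% on chromosome 24 and 3.08% on chromosome 11, which holds tfeb and tfe3b. Chromosomes 22 (3.29%) and 1 (3.15%), which hold no targeted gene, lay slightly above chromosome 11. The share was 0.800% on chromosome 8, which holds tfe3a, 0.266% on chromosome 20 and 0.144% on chromosome 13. In the 5 Mb window from 20 to 25 Mb on chromosome 18, 16 of 39 tested genes (41.0%) changed over 4-fold, and in the window from 15 to 20 Mb 23 of 78 (29.5%). Chromosome 25 from 20 to 25 Mb held 12 of 46 (26.1%) and chromosome 12 from 15 to 20 Mb 13 of 75 (17.3%). In all, 9 windows held at least 5 such genes making up at least 10% of those tested. They held 14 of the 18 genes absent in triple mutants and 1 of the 8 absent in wild type. The window from 20 to 25 Mb on chromosome 11, which holds tfeb, had 5 of 51 (9.8%) and is not among them. Outside the 9 windows 945 genes were higher and 1073 lower. The tables hold no genotypes, and the part of sequence differences between the lines in these changes was not tested.

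**Figure D5:**
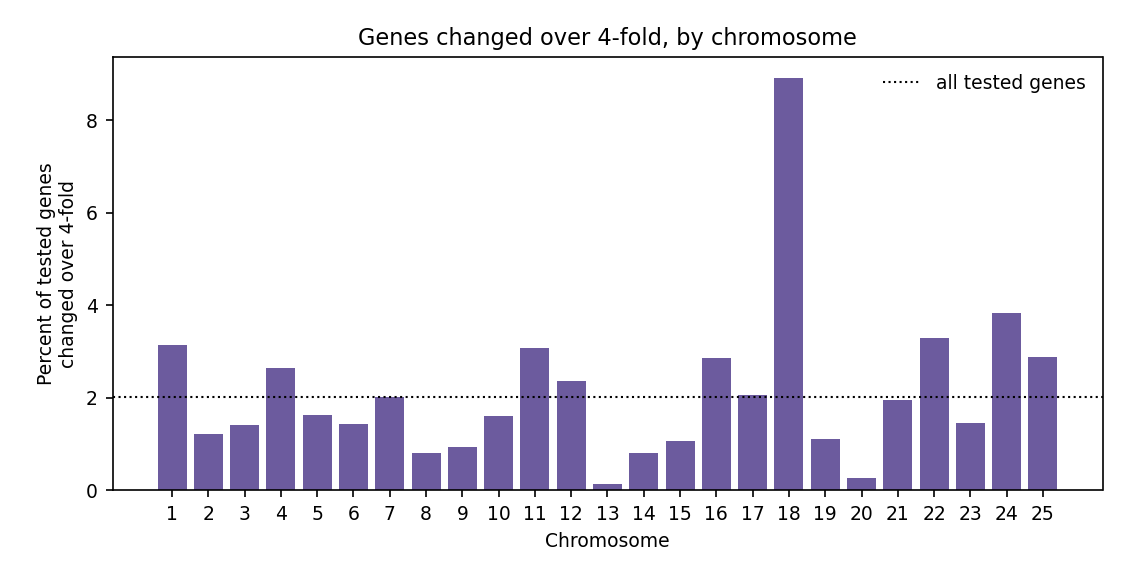
Percent of tested genes on each chromosome that passed the test and changed more than 4-fold. The dotted line marks the share over all tested genes, 2.01%; chromosome 18 reaches 8.92% and chromosome 13 is lowest at 0.144%.

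The genotype difference itself was tested for a change on injection. It differed between zymosan-injected and uninjected larvae at 27 of 19006 genes (0.142%), 6 of them (0.0316%) with a larger triple mutant level relative to wild type after injection and 21 (0.11%) with a smaller one. The count was 16 without uninjected wild-type replicate 1, 17 without injected triple mutant replicate 1 and 50 without injected wild-type replicate 3. Of these 27 genes, 11 are on the photoreceptor list, all 11 in the smaller direction. The ultraviolet cone opsin opn1sw1 was at 4500 ± 667 CPM (SD, n = 3) in uninjected triple mutants and 6040 ± 866 CPM in uninjected wild type, and at 566 ± 25.4 CPM and 2920 ± 722 CPM after injection. Its genotype difference was not called without injection (-0.42, adjusted p = 0.0521) and was -2.37 with it, a change of -1.94 (adjusted p = 9.02e-05). The blue cone opsin opn1sw2 changed by -1.52 (adjusted p = 0.00189), the green cone opsin opn1mw1 by -1.46 (adjusted p = 0.00305) and gnat2, the cone transducin alpha gene, by -0.98 (adjusted p = 0.012). Levels of opn1sw1 were lower after injection in wild type as well, and that effect of injection was not tested here.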

How the data were processed

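Total RNA of whole zebrafish larvae was sequenced from libraries made with the NEBNext Ultra II kit, per the labels' protocols. Reads were processed by the authors with HISAT2 2.0.5, StringTie 1.3.3b and featureCounts 1.5.0 on GRCz11, per the submitters' processing notes. The deposited tables hold whole read counts per gene. They also hold the authors' normalized signal per library and length-scaled FPKM values, per the file headers; the deposited FPKM values were not used for tests. A gene of the table had at least 2 counts over its 6 libraries. The 16 symbols that a spreadsheet had turned into dates and that could be restored by identifier were restored, and 23008 identifiers were found in the symbol table.

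Counts were tested with edgeR 4.0.16 (quasi-likelihood test, TMM scaling, filterByExpr) in R 4.3.3, on the 3 triple mutant and 3 wild-type libraries without covariates. P-values were two-sided and Benjamini-Hochberg adjusted over 17879 genes with a threshold of 0.05. Standard errors follow from the log2 fold change and its F statistic. CPM are counts divided by TMM-scaled library sizes. The common biological coefficient of variation was 0.144. TMM factors lay between 0.893 and 1.15. A fit of all 15 libraries gave the zymosan and rraga contrasts and the change of the genotype difference on injection. Within a group no pair of libraries was identical, and every such pair differed by more than counting noise. Same-numbered libraries deviated with correlations of -0.05, 0.039 and 0.013, where differently numbered ones gave -0.077 to 0.061. No pairing by replicate number showed. With 3 libraries per genotype these correlations cannot exclude a clutch or day shared between libraries. Counting intervals are 95% and, like the floor of 3 counts over a group, cover counting error only. The procedure was tested on simulated data with known changes. It called 30% of 1.5-fold, 68% of 2-fold, 86% of 4-fold and 98% of 8-fold changes. A gene that did not pass can therefore still differ, above all by less than 2-fold.

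Genes were named by a rule: the targeted genes; the 15 largest changes and the 10 most abundant called genes in each direction with at least 2 CPM and no overlap; called members of the 39 lists, up to 4 per direction by adjusted p and all lysosomal ones; genes with 0 counts in a genotype and at least 100 in the other; and their duplicates. The iron genes, uncalled markers, tfec, mitfa, the opposite duplicate pairs and the cone genes of the injection test were named after their values were seen. The members and lists were chosen with earlier results of these data known. Of 1676 list genes, 151 were not found in the table. Alternatives were RLE and upper-quartile scaling, other filters, DESeq2 1.42.0, a replicate block, the 15-library fit, and each library left out.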

Additional observations from a re-analysis of the deposited data

Results flagged for a closer look

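Beside the cone genes and prnpa that the report names, the genotype difference in 6 genes of the naming rule differed between zymosan-injected and uninjected larvae by edgeR's interaction test over 19006 genes. The red cone opsin gene opn1lw2 changed by -1.27 ± 0.15 on the log2 scale (adjusted p = 0.000125): it was 968 ± 104 CPM in uninjected triple mutants and 380 ± 30 CPM in wild type (SD, n = 3), and 222 ± 17.6 CPM and 211 ± 19.1 CPM after injection. For gngt2b the change was -0.87 ± 0.18 (adjusted p = 0.0442), and for the arrestin gene sagb, which was not called without injection, -0.73 ± 0.15 (adjusted p = 0.0416). The AP-1 genes moved the other way. fosab changed by 1.13 ± 0.19 (adjusted p = 0.00946), from 8.39 ± 0.444 CPM against 24.2 ± 2.15 CPM without injection to 24.3 ± 4.07 CPM against 32.1 ± 2.04 CPM with it. junbb changed by 1.22 ± 0.20 (adjusted p = 0.00519), from 15.7 ± 1.86 CPM against 26.5 ± 2.35 CPM to 43.6 ± 6.23 CPM against 31.4 ± 4.71 CPM. The prostaglandin D synthase gene ptgdsb.1 changed by 0.84 ± 0.17 (adjusted p = 0.0416), from 90.6 ± 9.67 CPM against 54.9 ± 1.82 CPM to 738 ± 21.7 CPM against 250 ± 30.5 CPM.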

How the results depend on the processing

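The uninjected comparison called 2186 genes, and 2111 by DESeq2, 1856 in the 15-library fit, 2551 without a filter on low counts, 2131 with a replicate block (966 higher, 1165 lower, 32 lysosomal), and 1560 to 2330 with a library left out (higher 689 to 1034, lower 843 to 1296). The share of higher calls stayed between 40.2% and 46.0%. Lysosomal calls numbered 19 to 35 with a library left out (higher 5 to 9, lower 14 to 26), the lowest without wild-type replicate 2. Of 237 called genes named, 163 kept their call under every one of the 13 alternatives that gave them a value, 74 lost it under at least 1 and none reversed. The uncalled tfeb, 0.01 as reported and 0.15 without triple mutant replicate 1, changed sign with the replicate block (-0.02), without triple mutant replicate 2 (-0.24) and without wild-type replicate 3 (-0.01), and the cause was not tested. The change of the genotype difference on injection, 27 genes, rests on single libraries: it ranged from 16 (without uninjected wild-type replicate 1) to 50 (without injected wild-type replicate 3) with a library left out, was 17 without injected triple mutant replicate 1, and was 50 by DESeq2 and 77 without a filter. Calls with a library left out numbered 1541 to 3163 for the zymosan and 1838 to 2642 for the rraga comparison. The counts outside dense chromosome windows were chosen after seeing the data. The promoter motif alternative was not run, as no sequences were used here. With 3 libraries per genotype and at least 12314113 counts each, genes under about 2 CPM, such as mpeg1.1 and tfe3b, rest on few counts.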
